A study of Mus musculus with 12 samples.

Results

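Cell cycle genes of the mouse surgical site were examined as a set of 55 genes, out of the 18996 genes in the count table. The rows of the table were taken by gene symbol, and all 55 were present and passed the filter on low counts. The genes were divided by their known role into 12 S phase genes (the Mcm helicase subunits, *Gins2*, *Cdc6*, *Pcna*, *Rrm1*, *Rrm2* and *Tyms*), 35 mitotic genes, and 8 regulators of entry into S phase and mitosis. The set was selected on the levels of these genes in the same 3 groups of mice, so every level and fold change given for a member describes the data. Where a member is said to be called, this tells on which side of the threshold of the fit over all genes it fell, and is not evidence for a difference.

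Bulk mRNA sequencing had been performed on tissue beside the spine of BALB/c mice, 5 to 7 weeks old, in 3 groups of 4 mice, whose sex the labels do not give. No operation mice were not operated on, and their sample was paraspinal soft tissue. In SHAM mice the paraspinal soft tissue was removed while the laminae were left in place, and in Laminectomy mice the bony laminae over the lower thoracic and upper lumbar cord were also excised. Both surgical groups were sampled 7 days after the operation as soft tissue together with scar, so that the operation and the kind of tissue collected cannot be told apart in a comparison with No operation mice.

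Cells that divide pass from G1, where cyclin-dependent kinases release the E2F transcription factors, into S phase, where the genome is copied, and then through G2 into mitosis, where the chromosomes are pulled apart. The genes for replication are switched on at the G1/S boundary, largely by E2F, and the genes for mitosis are switched on later by the MuvB complex together with B-MYB and FOXM1. Resting skeletal muscle holds few dividing cells, while a healing wound holds proliferating fibroblasts, macrophages, endothelial cells and muscle progenitors. In bulk tissue, fewer dividing cells and less RNA of these genes per cell cannot be told apart.

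Library totals lay between 16802988 and 18077863 counts. One edgeR fit was made over all 14765 genes that passed the filter, and a gene was called where its Benjamini-Hochberg adjusted p was below 0.05 and its log2 fold change exceeded 0.5 in size. The labelled tissue was checked against marker genes. All 10 markers of skeletal muscle fibres were called lower in both surgical groups, with summed levels of 86560 to 123000 CPM in No operation mice against 2135 to 8598 CPM in SHAM and 2838 to 12080 CPM in Laminectomy mice (CPM, the counts of a gene scaled by the library total and by TMM, the trimmed mean scaling of edgeR). Of the 10 macrophage markers, 10 rose in SHAM and 9 in Laminectomy mice, and of the 10 fibroblast markers 6 rose and 1 fell in SHAM and 6 rose and 2 fell in Laminectomy mice. SHAM mouse 1 stood apart, with a summed level of 8.60 CPM over 10 satellite cell and myoblast markers, while the rest of the group held 1340 to 2274 CPM, and with *Pax7* at 0.506 CPM.

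The S phase genes together summed to 300.2, 573, 353 and 209 CPM in No operation mice 1 to 4, to 519, 451, 685 and 789 CPM in the SHAM group, and to 894, 774.0, 870.1 and 579 CPM in the Laminectomy group. The means were 359 ± 155, 611 ± 154 and 779 ± 143 CPM (SD, n = 4 in each), so that SHAM was 1.70 times and Laminectomy 2.17 times the No operation mean. Among the SHAM mice lay No operation mouse 2, and every Laminectomy mouse lay above every No operation mouse, by a small margin for Laminectomy mouse 4.

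The mitotic genes together summed to 241.5, 976, 399 and 128 CPM in No operation mice, to 796, 977, 1247 and 1478 CPM in the SHAM group, and to 1830, 1594, 1740 and 1231 CPM in the Laminectomy group. The means were 436 ± 377, 1125 ± 299.5 and 1599 ± 264 CPM (SD, n = 4 in each), 2.58 times and 3.67 times the No operation mean in SHAM and Laminectomy. The 2 surgical groups overlapped, with Laminectomy mouse 4 below SHAM mice 3 and 4, and Laminectomy was 1.42 times SHAM for the mitotic sum and 1.28 times for the S phase sum. Without No operation mouse 2, the mitotic ratios to No operation were 4.40 in SHAM and 6.25 in Laminectomy.

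The balance of both classes was described by a ratio. The mitotic sum divided by the S phase sum was 0.804, 1.70, 1.13 and 0.611 in the No operation group, 1.53, 2.17, 1.82 and 1.87 in the SHAM group, and 2.05, 2.06, 2.00 and 2.13 in Laminectomy mice. No operation mouse 2 lay above SHAM mouse 1 and SHAM mouse 2 above every Laminectomy mouse, so that these groups overlapped, while every Laminectomy mouse lay above every No operation mouse. In Laminectomy mice this ratio varied with an SD of 0.0516 around 2.06 although the sums themselves varied 1.49-fold and 1.54-fold, so the classes moved together from mouse to mouse. Among No operation mice both the ratio and the mitotic sum were highest in mouse 2 and lowest in mouse 4. Without *Pttg1*, which ran opposite to the other members, the ratio was 0.638, 1.631, 1.005 and 0.307 in No operation mice. Its means without *Pttg1* were 0.895 in No operation, 1.82 in SHAM and 2.04 in Laminectomy mice, and the same groups overlapped.

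**Figure D1:**
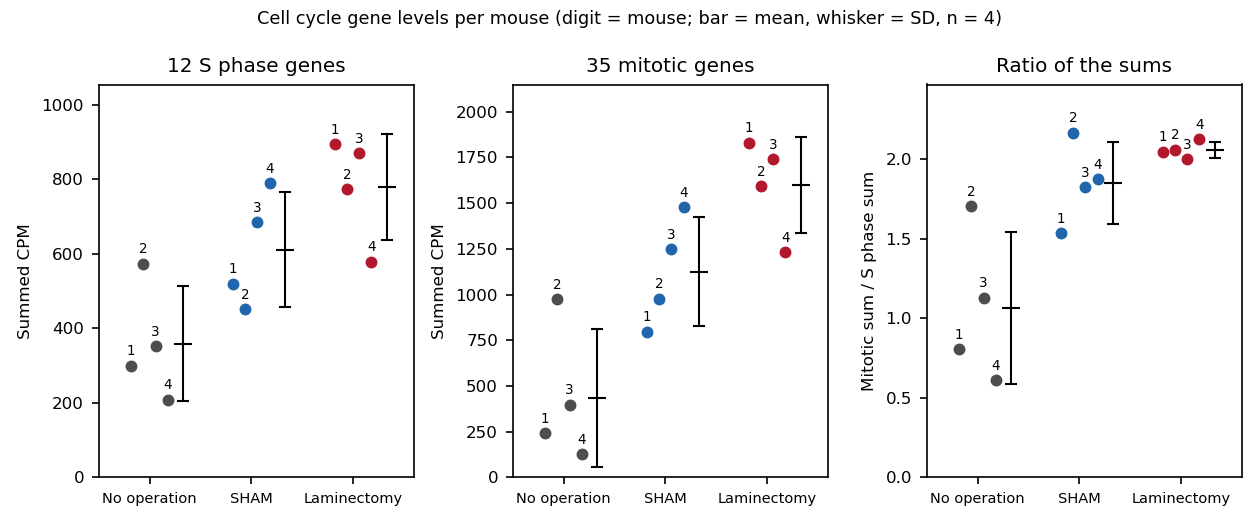
Summed CPM of the 12 S phase genes, summed CPM of the 35 mitotic genes, and the ratio of the 2 sums (vertical axes) in each No operation, SHAM and Laminectomy mouse. Points are mice, labelled by number, and the bar and whiskers give the mean and SD of the 4 mice. No operation mouse 2 sits at 976 CPM for the mitotic genes, within the SHAM range of 796 to 1478, and the Laminectomy ratios lie between 2.00 and 2.13.

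The regulators summed to 35.6, 112, 51.3 and 20.2 CPM in the No operation group, 109.8, 132, 151 and 165 CPM in the SHAM group, and 216, 184, 196 and 149 CPM in the Laminectomy group, with No operation mouse 2 just above SHAM mouse 1. The mean was 54.8 ± 40.3 CPM in No operation, 139.5 ± 23.9 CPM in SHAM and 186 ± 27.9 CPM in Laminectomy mice (SD, n = 4), ratios of 2.54 and 3.40 to No operation, which were 3.91 and 5.22 without No operation mouse 2.

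The No operation mice spread widely for these genes. Over the 35 mitotic genes the median SD of log2(CPM + 0.5) was 1.42 in No operation mice, 0.42 in SHAM and 0.27 in Laminectomy mice. Over all 14765 genes tested it was 0.22, 0.23 and 0.19. Mouse 2 had the highest level of 54 of the 55 members and mouse 4 the lowest level of 54, *Pttg1* being the exception in each. The median mitotic gene was 11.0 times higher in mouse 2 than in mouse 4, and the median S phase gene 2.84 times higher. Both folds are of CPM + 0.5, which makes them smaller than folds of the CPM, most where levels are low. Among SHAM mice, mouse 4 was highest for 50 members, and mouse 1 was lowest for 37. Among Laminectomy mice, mouse 4 was lowest for 51 members.

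**Figure D2:**
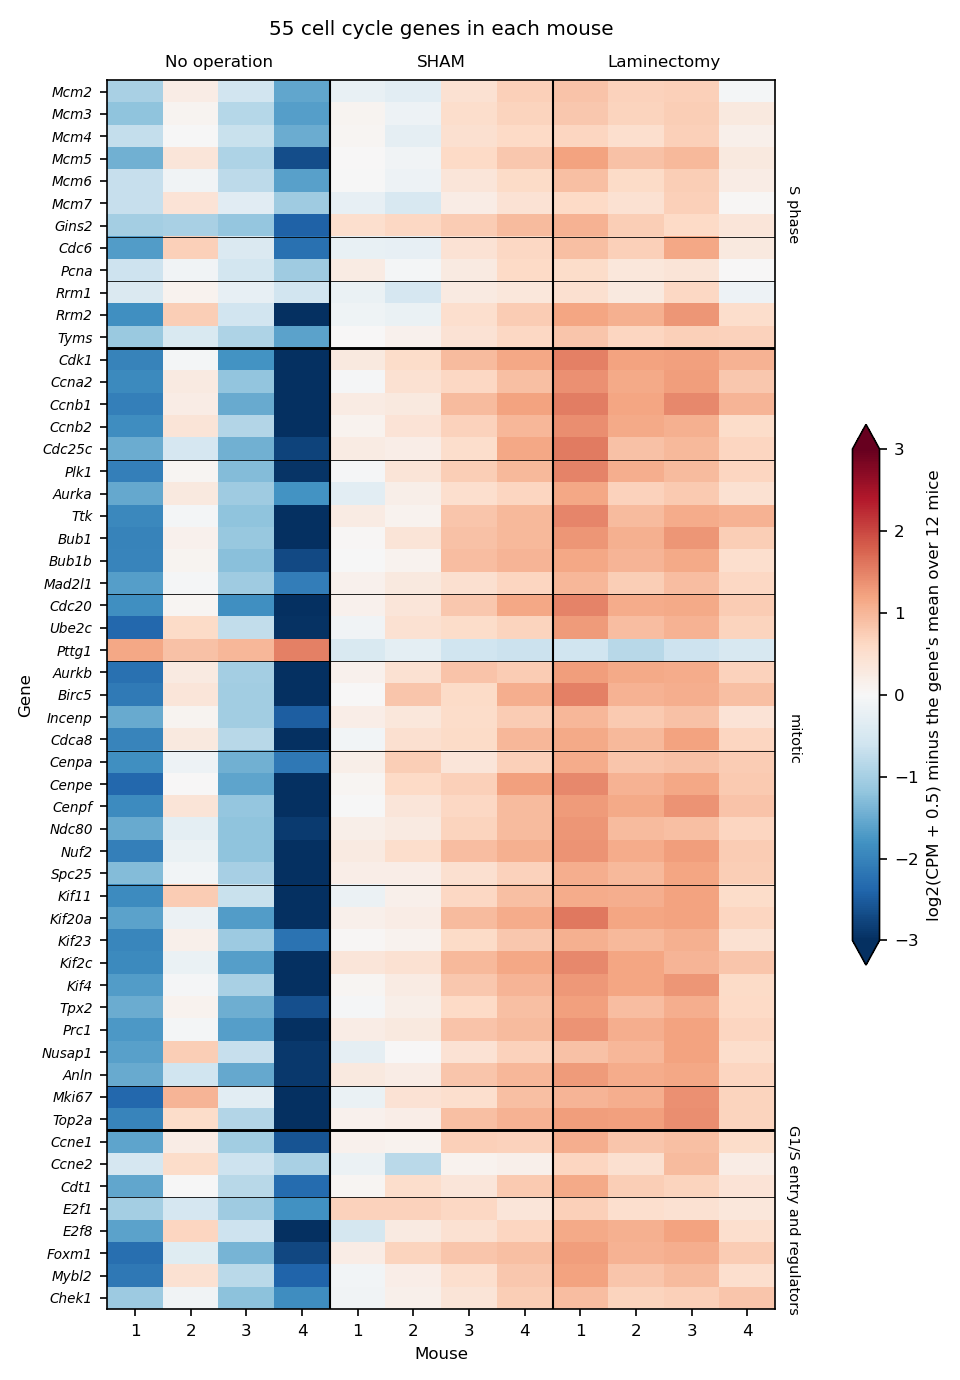
Level of each of the 55 cell cycle genes (rows) in each mouse (columns), as log2(CPM + 0.5) minus the mean of that gene over the 12 mice; values beyond 3 are drawn in the end colours. No operation mouse 4 is the lowest column and No operation mouse 2 is near the SHAM columns, and *Pttg1* runs opposite to the other rows.

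Markers of bone marrow cells varied among the same mice. The summed level of 7 marrow myeloid precursor markers (*Elane*, *Mpo*, *Prtn3*, *Ctsg*, *Ms4a3*, *Fcnb* and *Cebpe*) was 5.03, 628, 214 and 5.54 CPM in the No operation group, 3.20, 17.0, 51.4 and 156.5 CPM in the SHAM group, and 69.7, 228, 478 and 72.9 CPM in Laminectomy mice. *Mpo*, the myeloperoxidase made by granulocyte precursors, had levels of 0.896, 356.5, 116 and 2.10 CPM in the No operation group and 0.0562 CPM in SHAM mouse 1. The 9 erythroid precursor markers summed to 1059, 3739, 2521 and 609 CPM in the No operation group, and the 10 neutrophil markers to 102, 4585, 1708 and 37.7 CPM. The 8 osteoblast markers, at 26.8, 614, 191 and 43.2 CPM, and the 7 B cell markers, at 9.03, 65.8, 20.9 and 7.01 CPM, stood highest in the same mice. All 5 lists were highest in No operation mice 2 and 3, which also had the highest and second highest cell cycle levels of that group. In the SHAM group the myeloid precursor list and the mitotic sum put the mice in the same order, lowest in mouse 1 and highest in mouse 4, as did the erythroid list at 488, 694, 849.8 and 855 CPM, while in Laminectomy mice the myeloid precursor list was lowest in mouse 1, which had the highest mitotic sum. The erythroid precursor list, at 4542, 1845, 3181 and 859 CPM in the Laminectomy group, put these mice in the order of their mitotic sums, highest in mouse 1 and lowest in mouse 4. The neutrophil list, at 1588, 746, 851.5 and 2069 CPM in the SHAM group and at 2285, 2893, 4041 and 1618 CPM in the Laminectomy group, did not put the mice in the order of their mitotic sums in either. Nor did the osteoblast list, at 28.8, 153, 72.5 and 160.5 CPM in the SHAM group and 1888, 1812, 767.5 and 688 CPM in the Laminectomy group, or the B cell list, at 17.98, 25.73, 25.05 and 26.96 CPM and 29.22, 34.19, 32.95 and 21.74 CPM. None of the 7 myeloid precursor markers was called in either comparison with No operation, and no marker of the list was at 0 in all mice of a group.

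The part of marrow cells in the cell cycle levels was not tested. The 3 mice with the lowest myeloid precursor sums, SHAM mouse 1 (3.20 CPM) and No operation mice 1 and 4 (5.03 and 5.54 CPM), had mitotic sums of 796, 241.5 and 128 CPM. SHAM mouse 1, with its low satellite cell and myoblast markers, thus held the mitotic genes at over 3 times the level of either of those No operation mice. The satellite cell and myoblast list was at 115 to 181.5 CPM in No operation mice and at 1459 to 2304 CPM in Laminectomy mice, with 5 of its 10 genes called higher in SHAM, 6 in Laminectomy and none lower. Most of the sum in Laminectomy mice came from *Myh3* and *Myh8*, the embryonic and perinatal myosins. These 2 genes were at 7.37 to 21.3 and 6.17 to 13.8 CPM in No operation against 665 to 1018 and 441 to 851 CPM in Laminectomy mice. *Pax7*, which marks satellite cells themselves, was at 7.43 to 12.6 and 7.15 to 12.5 CPM, and *Myod1* and *Cdh15* also overlapped between these groups. The part of this list in the cell cycle levels was not tested.

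**Figure D3:**
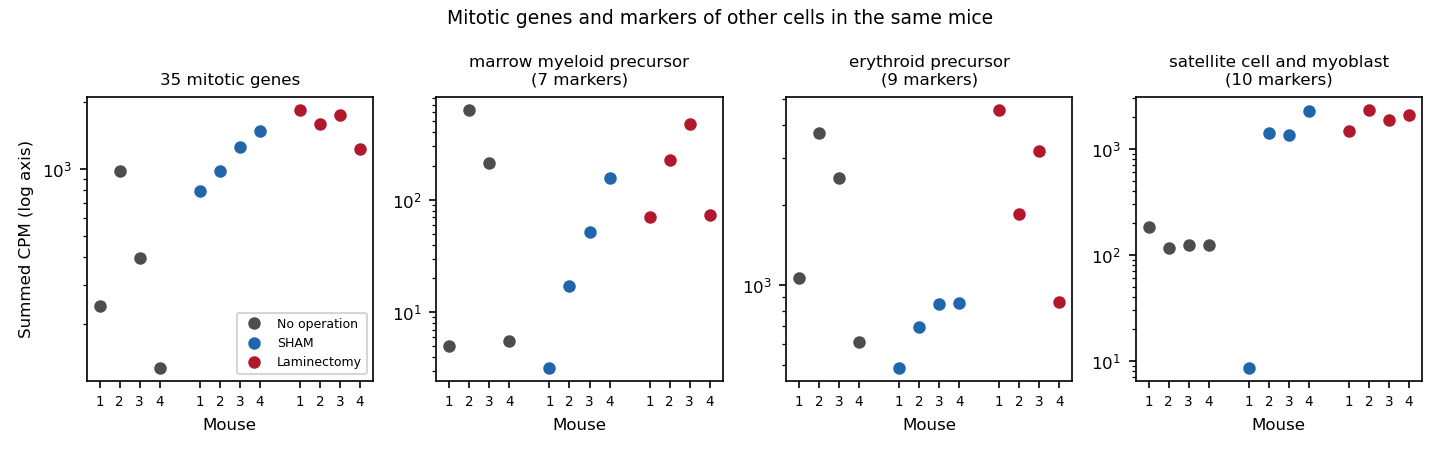
Summed CPM (log axis) of the 35 mitotic genes and of 3 lists of marker genes in each mouse, by mouse number and group. The marrow myeloid precursor list spans 5.03 to 628 CPM in No operation mice with the same mouse 2 on top as for the mitotic genes, and the satellite cell and myoblast list is at 8.60 CPM in SHAM mouse 1.

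Between SHAM and No operation, 37 of the 55 members were called higher, beside 25.7% of all genes tested, and 1 member was called lower, beside 25.1%. Between Laminectomy and No operation, 51 were called higher, beside 24.2%, and 1 lower, beside 24.4%. Every SHAM mouse lay above every No operation mouse for 24 members (26.7% of all genes) and below for 1 (27.8%), and every Laminectomy mouse lay above every No operation mouse for 43 members (27.0%) and below for 1 (29.0%). Since the members were chosen with these levels known, the counts describe the set and nothing is read from them. Without No operation mouse 2 the calls were 52 for SHAM and 54 for Laminectomy, and without No operation mouse 1 they were 28 and 42.

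The median log2 fold change was 0.87 in SHAM and 1.33 in Laminectomy for S phase genes and 1.69 and 2.16 for mitotic genes, beside medians of -0.00 and 0.01 over all genes. Of the 12 S phase genes, 6 were called higher in SHAM and 11 in Laminectomy, and of the 35 mitotic genes 26 and 32. With each mouse left out in turn, S phase calls ranged from 6 to 11 in SHAM and from 8 to 12 in Laminectomy. Mitotic calls ranged from 18 to 34 in SHAM and from 28 to 34 in Laminectomy. Other settings that lowered some of these counts are given at the end. Without No operation mouse 2, 11 S phase genes were called in SHAM, and the medians of the S phase and the mitotic genes were 1.38 and 2.51 in SHAM and 1.75 and 3.03 in Laminectomy. With library totals in place of TMM, the median of all genes moved by 0.26 in SHAM and by 0.32 in Laminectomy, and over all genes 5179 were called higher and 2671 lower in SHAM, in place of 3799 and 3703.

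**Figure D4:**
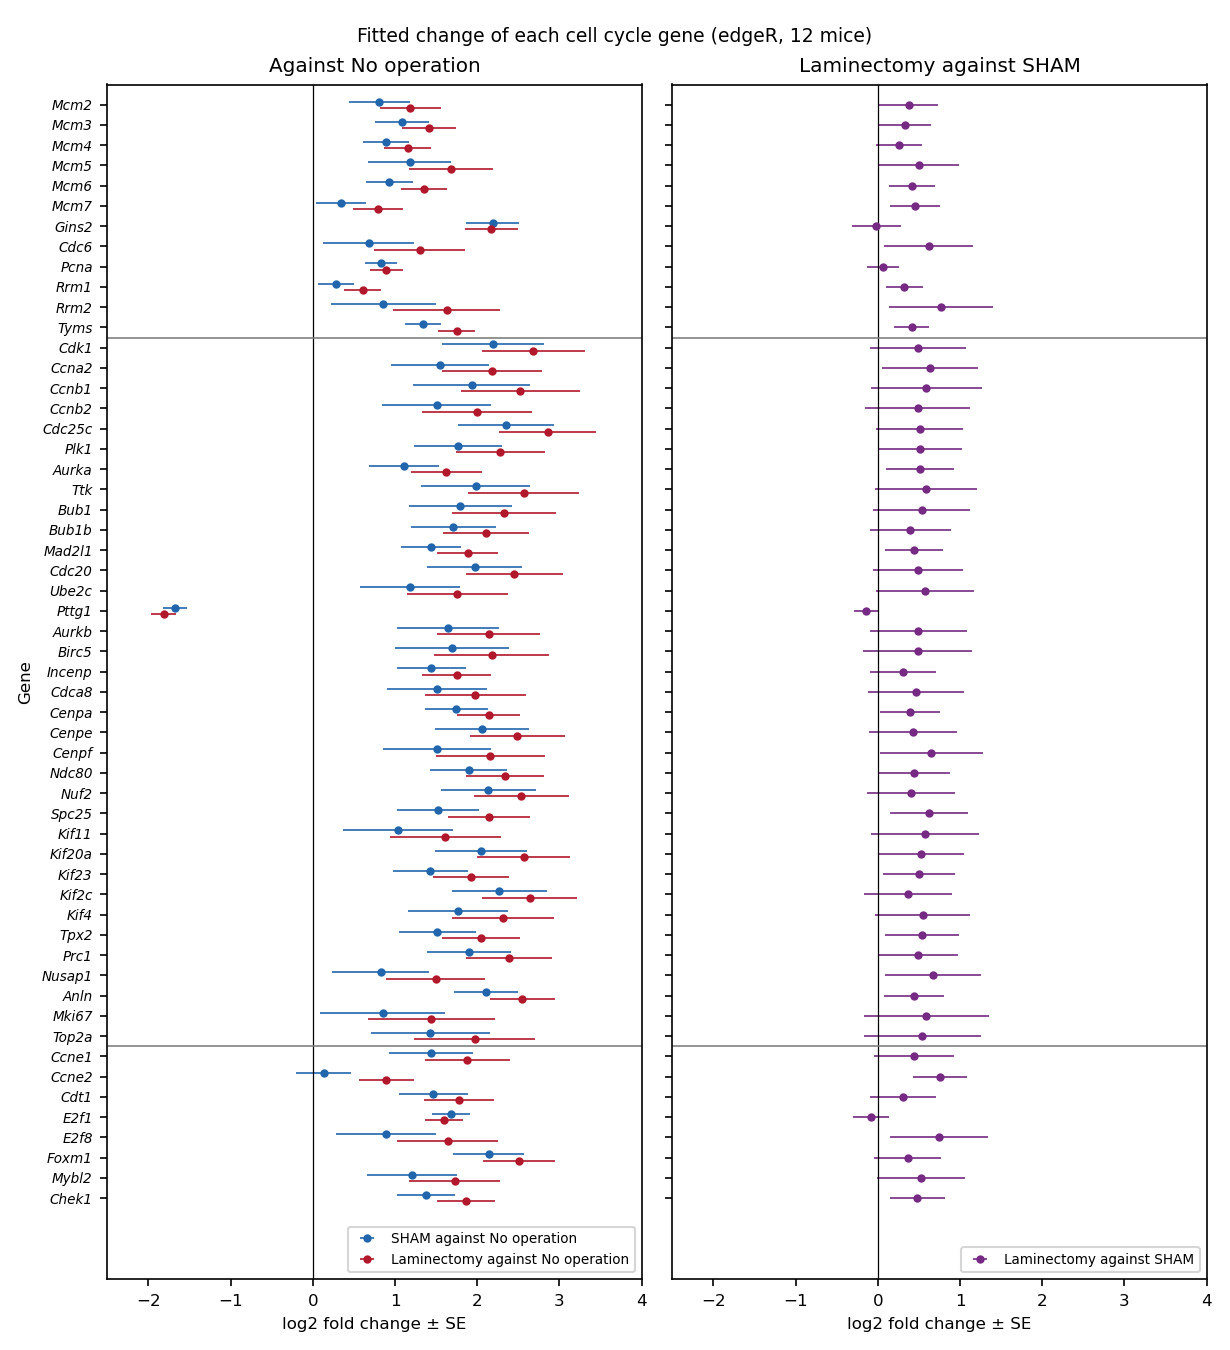
Fitted log2 fold change with its SE (horizontal axis) of each of the 55 genes, on the left for SHAM and for Laminectomy against No operation, on the right for Laminectomy against SHAM. S phase genes are above the first grey line and regulators below the second. Against No operation 54 of the 55 points lie above 0 in each comparison, *Pttg1* being at -1.68 and -1.82, and against SHAM the points lie between -0.14 and 0.77.

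The promoters of the most abundant members of each class are printed so that the sequence elements counted over both classes can be seen in place, a property that the choice of members did not use. RefSeq promoter windows of GRCm38.p6, from 250 bases before to 50 bases after each annotated start, were available for 45 of the 55 members (47 windows). Capitals mark matches to the CHR element (cell cycle genes homology region, TTTGAA or TTTAAA, where MuvB binds), the CCAAT box, where NF-Y binds, and an E2F element (TTTCCCGC, TTTCGCGC, TTTGCCGC or TTTGGCGC), each searched on both strands, so that ATTGG is a CCAAT box on the other strand. The first 3 are S phase genes and the last 3 mitotic genes, those with the highest mean CPM per kb of exon in each class among the members with a window. They lie at chr2:132253131-132253430 (*Pcna*, minus strand), chr1:128359656-128359955 (*Mcm6*, minus), chr12:24708004-24708303 (*Rrm2*, plus), chr9:70421505-70421804 (*Ccnb2*, minus), chr4:118437294-118437593 (*Cdc20*, minus) and chr11:43425932-43426231 (*Pttg1*, minus).
Pcna: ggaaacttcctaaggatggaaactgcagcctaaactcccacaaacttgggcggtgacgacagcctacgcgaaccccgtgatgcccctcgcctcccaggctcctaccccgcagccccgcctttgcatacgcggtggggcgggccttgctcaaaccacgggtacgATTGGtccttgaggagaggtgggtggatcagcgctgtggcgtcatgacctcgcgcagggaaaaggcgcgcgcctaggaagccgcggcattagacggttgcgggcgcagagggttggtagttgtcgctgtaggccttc
Mcm6: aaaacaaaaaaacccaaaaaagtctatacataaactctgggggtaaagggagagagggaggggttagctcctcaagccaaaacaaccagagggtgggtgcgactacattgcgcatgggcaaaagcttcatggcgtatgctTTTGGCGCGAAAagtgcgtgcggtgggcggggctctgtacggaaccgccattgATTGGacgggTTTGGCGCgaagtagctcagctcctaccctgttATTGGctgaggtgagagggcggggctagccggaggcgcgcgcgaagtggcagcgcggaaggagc
Rrm2: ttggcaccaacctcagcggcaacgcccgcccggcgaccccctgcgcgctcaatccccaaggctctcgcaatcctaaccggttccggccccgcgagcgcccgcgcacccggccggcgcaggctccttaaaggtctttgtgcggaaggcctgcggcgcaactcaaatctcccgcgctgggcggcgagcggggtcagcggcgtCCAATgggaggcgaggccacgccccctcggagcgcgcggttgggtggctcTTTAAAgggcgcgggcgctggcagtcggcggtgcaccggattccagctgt
Ccnb2: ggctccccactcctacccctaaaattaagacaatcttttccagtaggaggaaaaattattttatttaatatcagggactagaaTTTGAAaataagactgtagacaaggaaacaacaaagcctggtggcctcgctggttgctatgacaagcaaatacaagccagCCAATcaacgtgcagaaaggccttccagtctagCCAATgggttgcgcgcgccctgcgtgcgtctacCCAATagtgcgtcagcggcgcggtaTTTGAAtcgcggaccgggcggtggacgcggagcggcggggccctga
Cdc20: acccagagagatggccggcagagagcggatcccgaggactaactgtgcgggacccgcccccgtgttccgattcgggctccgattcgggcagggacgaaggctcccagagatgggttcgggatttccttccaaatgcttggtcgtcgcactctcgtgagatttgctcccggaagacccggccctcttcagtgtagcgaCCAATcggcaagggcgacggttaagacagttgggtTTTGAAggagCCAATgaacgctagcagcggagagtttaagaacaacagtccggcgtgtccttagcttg
Pttg1: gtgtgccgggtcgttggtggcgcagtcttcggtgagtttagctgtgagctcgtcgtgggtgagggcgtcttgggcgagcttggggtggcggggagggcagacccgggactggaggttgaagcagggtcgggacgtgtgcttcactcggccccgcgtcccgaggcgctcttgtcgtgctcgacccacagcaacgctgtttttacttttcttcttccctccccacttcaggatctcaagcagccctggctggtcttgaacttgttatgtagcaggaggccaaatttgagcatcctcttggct

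The *Ccnb2* window held CHR matches starting at positions -167 and 5 from the start and CCAAT boxes at -87, -54 and -21, and the *Cdc20* window held a CHR match at -18 between CCAAT boxes at -53 and -8. The *Mcm6* window held 3 E2F matches, at -110, -106 and -47, the first 2 overlapping on opposite strands, and CCAAT boxes at -57 and -14. The *Rrm2* window held 1 CCAAT box at -50 and the letters TTTAAA at 1, and the *Pcna* window 1 CCAAT box at -87. None of these letters was in the *Pttg1* window. That window lies wholly inside the gene, whose outer end is at 43426251, so the sequence before this end was not searched.

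Over all members with a window, a CHR match was in 25 of the 30 mitotic windows (83.3%), in 3 of the 11 S phase windows (27.3%), and in 27.6% of the 32851 windows of all genes. With TTTGAA alone the shares were 73.3%, 9.09% and 17.9%. A CCAAT box was in 73.3% of mitotic and 81.8% of S phase windows, beside 37.4% of all windows. An E2F match was in 5 of the 11 S phase windows (45.5%), in 1 of the 30 mitotic windows (3.33%), and in 2.27% of all windows. The windows of *Cdca8*, *Kif2c* and *Pttg1*, among others, lie inside the annotated span of their gene and not before its outer end. A match is a run of letters, not a bound site, and these shares are descriptions without a test.

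**Figure D5:**
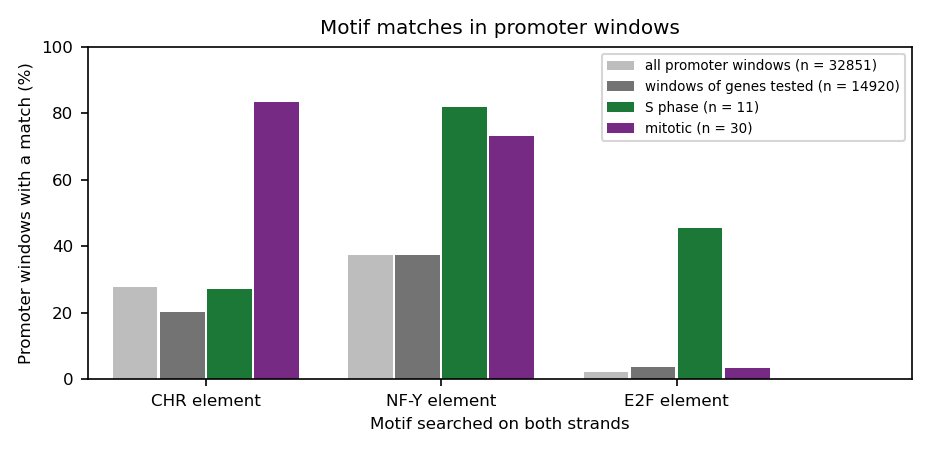
Share of promoter windows (vertical axis, percent) with at least 1 match to the CHR element, the NF-Y element (the CCAAT box) and the E2F element, for all windows, for windows of genes tested, and for the S phase and mitotic members, with the number of windows in the legend. The CHR element is in 83.3% of mitotic and 27.3% of S phase windows, and the E2F element in 3.33% and 45.5%.

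The replicative helicase that unwinds DNA at the fork is a ring of Mcm2 to Mcm7 held with Cdc45 and the GINS complex. *Mcm6* (NCBI gene 17219, chromosome 1, 128331590 to 128359664 in GRCm38, as for the positions that follow) had the highest level per kb among its genes, with 43.3, 65.9, 40.5 and 22.4 CPM in No operation, 70.4, 63.0, 90.1 and 105 CPM in SHAM and 133, 106, 118 and 82.8 CPM in Laminectomy mice. All Laminectomy mice were above all No operation mice, while SHAM mouse 2 was below No operation mouse 2. The log2 fold change (with SE) was 0.93 ± 0.28 in SHAM and 1.35 ± 0.28 in Laminectomy. *Mcm3* and *Mcm4* were called in both comparisons with values from 0.89 to 1.42.

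*Mcm2*, *Mcm5* and *Mcm7* were called in Laminectomy and not in SHAM. *Mcm5* was at 11.0, 39.4, 15.8 and 4.42 CPM in No operation, 30.9, 28.5, 46.5 and 54.3 CPM in SHAM and 71.4, 56.5, 60.7 and 37.8 CPM in Laminectomy mice, with No operation mouse 2 above Laminectomy mouse 4. *Mcm2* was at 17.4, 39.9, 23.11 and 11.4 CPM in No operation, 29.2, 27.6, 47.5 and 57.0 CPM in SHAM and 62.9, 56.1, 57.1 and 33.3 CPM in Laminectomy mice. *Mcm7* was at 28.7, 62.0, 36.5 and 21.9 CPM in No operation, 39.3, 33.3, 54.2 and 62.6 CPM in SHAM and 70.5, 64.4, 76.4 and 47.5 CPM in Laminectomy mice. In each of these 3 genes No operation mouse 2 reached the levels of the surgical groups. The log2 fold changes of *Mcm2*, *Mcm5* and *Mcm7* were 0.81, 1.18 and 0.34 in SHAM and 1.19, 1.68 and 0.79 in Laminectomy. Exons of *Mcm7* share 321 bases with *Ap4m1* on the opposite strand. The libraries kept strand, but the counting is described as run at default settings, which ignore it, so reads from such overlaps cannot be assigned with certainty.

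*Gins2* (NCBI gene 272551, chromosome 8, 120578633 to 120589304), a subunit of GINS, had the largest fold change of the S phase genes. Its level was 3.45, 3.59, 3.06 and 0.981 CPM in No operation, 10.8, 11.8, 13.1 and 14.9 CPM in SHAM and 15.99, 12.8, 11.6 and 9.75 CPM in Laminectomy mice, and the surgical mice were all above the No operation mice without overlap. The log2 fold change was 2.19 ± 0.32 in SHAM and 2.17 ± 0.32 in Laminectomy, and -0.02 ± 0.30 between the surgical groups. For *Gins2*, No operation mouse 2, the highest mouse for most members, was hardly above mouse 1. Its exons overlap those of *Gse1* on the opposite strand over 2758 bases, and how reads from this stretch entered its count is not known.

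*Pcna* (NCBI gene 18538, chromosome 2, 132249162 to 132253314) encodes the sliding clamp that tethers DNA polymerases, and was the member with the highest level per kb, 40.9 CPM per kb on average over 12 mice. It was at 60.7, 86.3, 63.3 and 44.0 CPM in No operation, 109.9, 89.8, 112 and 140.4 CPM in SHAM and 137, 118, 122 and 94.5 CPM in Laminectomy mice. SHAM and Laminectomy mice were all above No operation mice and mixed with each other. The log2 fold change was 0.83 ± 0.20 in SHAM and 0.89 ± 0.20 in Laminectomy. *Cdc6*, which loads the helicase onto origins, was at 2.83, 17.0, 7.33 and 1.75 CPM in No operation, 8.54, 8.51, 13.7 and 15.8 CPM in SHAM and 19.2, 16.8, 23.10 and 12.4 CPM in Laminectomy mice. The level in No operation mouse 2 was above every SHAM mouse, and *Cdc6* was called in neither comparison (log2 fold changes of 0.68 ± 0.55 and 1.299 ± 0.56).

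Ribonucleotide reductase and thymidylate synthase supply deoxynucleotides. *Rrm2*, the S phase-restricted small subunit of the reductase, was at 8.62, 53.9, 21.5 and 2.66 CPM in No operation, 29.1, 27.9, 45.6 and 54.6 CPM in SHAM and 73.5, 67.9, 80.9 and 46.2 CPM in Laminectomy mice. No operation mice spanned 2.66 to 53.9 CPM and reached into both surgical groups. Its log2 fold change was 0.86 ± 0.64 in SHAM, where it was not called, and 1.63 ± 0.65 in Laminectomy, where it was.

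*Rrm1*, the large subunit, had the smallest fold change of the class. It was at 73.3, 106, 83.3 and 66.0 CPM in No operation, 85.6, 70.1, 118 and 126 CPM in SHAM and 139, 122, 152 and 89.0 CPM in Laminectomy mice, and the groups overlapped. The log2 fold change was 0.28 ± 0.22 in SHAM (not called) and 0.61 ± 0.22 in Laminectomy (called). *Tyms* was separated between all 3 groups, at 7.03, 11.2, 8.06 and 4.84 CPM in No operation, 15.8, 17.1, 21.5 and 24.5 CPM in SHAM and 28.4, 24.6, 26.3 and 25.6 CPM in Laminectomy mice. The deposited values of *Tyms* are in part not whole numbers, which was also so for *Ccna2*, *Ube2c*, *Kif20a*, *Prc1* and *Ccne2*.

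The cyclin-CDK engine starts mitosis through *Cdk1*, the cyclins *Ccna2*, *Ccnb1* and *Ccnb2*, and *Cdc25c*, the phosphatase that activates CDK1. *Ccnb2* (NCBI gene 12442, chromosome 9, 70407692 to 70421547) was the most abundant of these per kb, at 4.20, 21.9, 8.79 and 0.561 CPM in No operation, 17.9, 22.3, 27.2 and 33.8 CPM in SHAM and 44.7, 36.9, 35.3 and 24.7 CPM in Laminectomy mice. The level in No operation mouse 2 lay between SHAM mice 1 and 2, and below the Laminectomy mice. The log2 fold change was 1.51 ± 0.66 in SHAM, where it was not called, and 1.99 ± 0.67 in Laminectomy. *Cdc25c* had the largest mitotic fold changes, 2.35 ± 0.58 and 2.86 ± 0.59, from 0.896, 2.27, 0.932 and 0.0701 CPM in No operation to 4.10, 3.96, 5.14 and 8.27 CPM in SHAM and 11.0, 6.74, 7.20 and 5.63 CPM in Laminectomy mice. The surgical mice were all above the No operation mice. *Cdk1* was at 8.39 ± 9.02, 38.5 ± 10.4 and 54.1 ± 7.48 CPM (SD, n = 4) in No operation, SHAM and Laminectomy mice, again without overlap with No operation mice.

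The kinases encoded by *Plk1* and *Aurka* drive entry into mitosis and spindle assembly, and *Ttk*, *Bub1*, *Bub1b* and *Mad2l1* belong to the spindle checkpoint, which holds anaphase back until chromosomes are attached. All 6 were called in both comparisons with No operation, with log2 fold changes of 1.11 to 1.98 in SHAM and 1.62 to 2.56 in Laminectomy. *Plk1* (NCBI gene 18817, chromosome 7, 122159439 to 122169873), the polo kinase, was at 3.79, 18.01, 6.73 and 1.82 CPM in No operation, 16.8, 22.9, 29.1 and 34.5 CPM in SHAM and 49.5, 37.2, 34.1 and 27.4 CPM in Laminectomy mice. Just above SHAM mouse 1 and below all Laminectomy mice was No operation mouse 2.

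The anaphase-promoting complex destroys securin and cyclin B with the activator *Cdc20* and the conjugating enzyme *Ube2c*. *Cdc20* (NCBI gene 107995, chromosome 4, 118432901 to 118437352) was at 4.75, 19.1, 4.73 and 1.33 CPM in No operation, 20.1, 23.5, 32.6 and 41.6 CPM in SHAM and 52.3, 40.4, 40.6 and 31.6 CPM in Laminectomy mice, with log2 fold changes of 1.97 ± 0.58 and 2.45 ± 0.59. All surgical mice were above all No operation mice, No operation mouse 2 by little below SHAM mouse 1. *Ube2c* was at 3.03, 26.5, 10.4 and 1.82 CPM in No operation, 16.4, 24.2, 26.1 and 28.4 CPM in SHAM and 43.0, 34.0, 36.7 and 28.1 CPM in Laminectomy mice, and was called in Laminectomy (1.76 ± 0.62) and not in SHAM (1.18 ± 0.61). Its exons share 592 bases with *Tnnc2*, the fast muscle troponin C gene, on the opposite strand.

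*Pttg1* (NCBI gene 30939, chromosome 11, 43420250 to 43426251), which encodes securin, the inhibitor of separase that this complex destroys, was the 1 member that was lower after surgery. It was at 49.9, 40.9, 44.3 and 63.6 CPM in No operation, 15.8, 17.9, 14.3 and 14.0 CPM in SHAM and 14.3, 12.2, 14.1 and 15.7 CPM in Laminectomy mice. Every surgical mouse was below every No operation mouse, and the order among No operation mice was turned, with mouse 4 highest and mouse 2 lowest. The log2 fold change was -1.68 ± 0.15 in SHAM and -1.82 ± 0.15 in Laminectomy, with the smallest SE of any member. *Espl1*, the gene of separase, which is no member, rose with the other mitotic genes, from 8.80 CPM in No operation to 29.5 CPM in SHAM and 36.3 CPM in Laminectomy mice on average. Without *Pttg1* the mitotic sum was 192, 935, 354 and 64.0 CPM in the No operation group, a 14.6-fold range in place of 7.65-fold, and the SHAM and Laminectomy means were 2.87 and 4.10 times the No operation mean, or 5.46 and 7.80 times without No operation mouse 2.

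The chromosomal passenger complex, made of the kinase *Aurkb* with *Incenp*, *Birc5* and *Cdca8*, corrects attachments at the centromere. *Incenp* (NCBI gene 16319, chromosome 19, 9872296 to 9899551) was its most abundant gene per kb, at 12.5, 38.9, 17.4 and 6.17 CPM in No operation, 42.1, 46.0, 53.6 and 62.6 CPM in SHAM and 73.6, 62.9, 67.5 and 49.0 CPM in Laminectomy mice, without overlap between surgical mice and No operation mice, and with a log2 fold change of 1.44 ± 0.42 in SHAM and 1.75 ± 0.42 in Laminectomy. *Birc5*, survivin, was at 3.79, 23.2, 8.46 and 0.491 CPM in No operation, 18.1, 32.6, 27.1 and 38.6 CPM in SHAM and 52.2, 37.5, 39.0 and 34.30 CPM in Laminectomy mice, and was called in Laminectomy (2.18 ± 0.70) and not in SHAM (1.69 ± 0.69), where SHAM mouse 1 lay below No operation mouse 2.

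At the centromere and kinetochore, where microtubules attach, log2 fold changes were 1.51 to 2.14 in SHAM and 2.14 to 2.54 in Laminectomy for *Cenpa*, *Cenpe*, *Cenpf*, *Ndc80*, *Nuf2* and *Spc25*. *Spc25* (NCBI gene 66442, chromosome 2, 69193895 to 69206194), a subunit of the NDC80 complex, was at 3.65, 9.26, 4.60 and 0.631 CPM in No operation, 11.3, 11.2, 13.8 and 16.01 CPM in SHAM and 21.4, 19.6, 22.7 and 16.7 CPM in Laminectomy mice. The 3 groups were in separate ranges, which was also so for *Cenpa*, the centromeric histone. *Cenpf* was at 3.45, 18.5, 6.06 and 0.491 CPM in No operation, 13.9, 18.4, 21.9 and 27.5 CPM in SHAM and 34.6, 31.4, 36.5 and 25.7 CPM in Laminectomy mice, with No operation mouse 2 among the SHAM mice, and was called in Laminectomy (2.16 ± 0.66) and not in SHAM (1.51 ± 0.65).

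Of the 9 genes for kinesins, spindle and cytokinesis, 7 were called in both comparisons. *Tpx2* (NCBI gene 72119, chromosome 2, 152847964 to 152895321), which nucleates spindle microtubules, was at 11.3, 34.9, 11.4 and 4.77 CPM in No operation, 31.5, 36.4, 49.7 and 60.6 CPM in SHAM and 76.8, 62.5, 69.6 and 49.6 CPM in Laminectomy mice, with log2 fold changes of 1.51 ± 0.47 and 2.05 ± 0.47. *Kif11*, the Eg5 motor, was at 7.24, 48.4, 17.6 and 1.82 CPM in No operation, 24.8, 31.6, 44.0 and 53.6 CPM in SHAM and 61.6, 61.0, 65.7 and 41.4 CPM in Laminectomy mice. The *Kif11* level of No operation mouse 2 exceeded SHAM mice 1 to 3 and Laminectomy mouse 4, and *Kif11* was called in neither comparison (1.03 ± 0.67 and 1.61 ± 0.68). *Nusap1*, a microtubule-bundling protein gene, was at 4.96, 27.8, 9.99 and 1.75 CPM in No operation, 13.4, 16.5, 22.4 and 26.8 CPM in SHAM and 30.5, 33.1, 38.4 and 23.8 CPM in Laminectomy mice. It was called in Laminectomy (1.49 ± 0.60) and not in SHAM (0.82 ± 0.59), with No operation mouse 2 above all SHAM mice. *Kif20a*, *Prc1* and *Kif4* overlap opposite-strand genes over 1271, 911 and 832 exonic bases.

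*Mki67* (NCBI gene 17345, chromosome 7, 135689784 to 135716361), which encodes Ki-67, the chromosome surface protein used to stain dividing cells, was at 17.1, 181, 71.5 and 4.63 CPM in No operation, 78.1, 121, 127 and 169 CPM in SHAM and 182, 189.7, 230.1 and 143 CPM in Laminectomy mice. No operation mouse 2 was above all SHAM mice and among the Laminectomy mice, and No operation mouse 4 was the lowest of all. *Mki67* was called in neither comparison, with log2 fold changes of 0.85 ± 0.76 in SHAM and 1.44 ± 0.77 in Laminectomy. *Top2a*, topoisomerase II of dividing cells, was at 16.6, 98.4, 36.0 and 2.38 CPM in No operation, 72.8, 77.1, 125 and 138 CPM in SHAM and 160.4, 158, 176 and 107 CPM in Laminectomy mice, and was called in Laminectomy (1.97 ± 0.73) and not in SHAM (1.43 ± 0.72). For *Top2a* No operation mouse 2 was above SHAM mice 1 and 2 and below all Laminectomy mice. Without No operation mouse 2 all members but *Pttg1* were called higher in Laminectomy, *Mki67*, *Kif11* and *Cdc6* included, and in SHAM all but *Pttg1*, *Ccne2* and *Rrm1*.

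Among the regulators, the E-type cyclins drive entry into S phase and *Cdt1* licenses origins. *Cdt1* (NCBI gene 67177, chromosome 8, 122568015 to 122573554) was at 3.38, 11.0, 5.93 and 1.82 CPM in No operation, 11.5, 16.2, 14.2 and 19.4 CPM in SHAM and 24.6, 18.7, 17.8 and 14.8 CPM in Laminectomy mice, with the surgical mice all above (1.47 ± 0.42 and 1.78 ± 0.42). *Ccne2* was at 8.55, 18.1, 7.79 and 5.96 CPM in No operation, 10.8, 6.79, 13.2 and 13.6 CPM in SHAM and 19.3, 17.4, 24.0 and 14.4 CPM in Laminectomy mice. SHAM and No operation mice were mixed, with a log2 fold change of 0.13 ± 0.33, while Laminectomy mice were all above SHAM mice, with 0.76 ± 0.33. Its exons share 609 bases with *Ints8* on the opposite strand. *Ccne1* was called in both comparisons with No operation, at 1.44 and 1.88.

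*E2f1* (NCBI gene 13555, chromosome 2, 154559407 to 154569892), the activator at the G1/S boundary, was at 7.44, 10.9, 7.19 and 4.07 CPM in No operation, 25.2, 25.4, 24.0 and 20.2 CPM in SHAM and 25.8, 22.3, 21.4 and 19.8 CPM in Laminectomy mice. The surgical mice were all above the No operation mice and mixed with each other, with log2 fold changes of 1.68 ± 0.23 and 1.59 ± 0.23. *E2f8*, a repressor E2F, was at 4.69, 23.9, 9.79 and 1.26 CPM in No operation, 10.3, 18.4, 21.0 and 24.3 CPM in SHAM and 34.1, 32.7, 35.7 and 21.7 CPM in Laminectomy mice, and *Mybl2*, the gene of B-MYB, at 2.21, 15.9, 6.26 and 1.75 CPM, 10.7, 13.1, 16.3 and 20.2 CPM and 27.2, 20.7, 22.5 and 16.3 CPM. Both were called in Laminectomy (1.64 ± 0.62 and 1.73 ± 0.55) and not in SHAM (0.89 ± 0.61 and 1.20 ± 0.55), where No operation mouse 2 lay within the SHAM range. *Foxm1* had log2 fold changes of 2.14 and 2.51 and *Chek1*, the replication checkpoint kinase, 1.38 and 1.86, each without overlap between surgical and No operation mice.

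Laminectomy and SHAM mice differ in the removal of bone. Of the 55 members 52 had a higher fitted level in Laminectomy, with a median log2 fold change of 0.49 beside 0.00 over all genes, and a median SE of 0.49. By edgeR 0 members were called higher, beside 0% of all genes. At an unadjusted p below 0.05 edgeR listed 1 member, *Ccne2*, and 2359 of all genes, while DESeq2 called 0 members and, over all genes, 337 higher and 359 lower. Every Laminectomy mouse lay above every SHAM mouse for 4 members (*Tyms*, *Cenpa*, *Spc25* and *Ccne2*), beside 5.05% of all genes, and for 0 members below, beside 5.07%. The largest differences were for *Rrm2* (0.77 ± 0.63) among S phase genes and *Nusap1* (0.67 ± 0.58) among mitotic genes. The 3 members with a fitted level below SHAM were *Gins2*, *E2f1* (-0.09 ± 0.22) and *Pttg1* (-0.14 ± 0.15), and with library totals in place of TMM *Gins2* was at 0.04. Markers of bone, cartilage and erythroid cells and of macrophages moved with this comparison. The osteoblast markers summed to 688 to 1888 CPM in Laminectomy mice against 28.8 to 160.5 CPM in SHAM mice. The 8 chondrocyte markers summed to 295 to 1365 CPM against 14.2 to 215.0 CPM. The erythroid precursor markers were at 859 to 4542 CPM against 488 to 855 CPM. Macrophage markers were lower in Laminectomy, at 2113 to 2964 CPM against 3372 to 6221 CPM. None of these markers was called between both groups, and their part in the cell cycle levels was not tested. With each mouse left out in turn, the median of the mitotic genes ranged from 0.37 (without SHAM mouse 1) to 0.66 (without SHAM mouse 4) and that of the S phase genes from 0.27 (without SHAM mouse 2) to 0.55 (without SHAM mouse 4).

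Other genes of the cell cycle, 215 in 14 lists that hold no member, were compared in the same fit, and 213 were tested. Between SHAM and No operation 100 were called higher and 12 lower, and between Laminectomy and No operation 138 higher and 10 lower, with 0 called between Laminectomy and SHAM by edgeR. These lists were drawn up with results of the same libraries known, and their counts stand beside the shares of all genes given above.

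Most genes of the kinetochore and spindle lists rose. Of 30 other kinetochore and checkpoint genes 23 rose in SHAM and 27 in Laminectomy and none fell, with median log2 fold changes of 1.29 and 1.74, *Ska3*, a kinetochore gene, being at 2.08 and 2.49. Of 25 other spindle and cytokinesis genes 18 and 24 rose and none fell. *Melk*, a kinase gene of dividing cells, rose from 2.20 CPM in No operation to 14.7 CPM in SHAM and 19.2 CPM in Laminectomy on average (log2 fold changes of 2.73 and 3.11, adjusted p = 0.000405 and 0.000206 by edgeR). Of 16 condensin and cohesin genes 5 and 8 rose.

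The replication lists were mixed in their shares of calls. Of 22 genes for DNA polymerases, clamp loaders and ligase 11 rose in SHAM and 13 in Laminectomy, and 2 fell in SHAM, *Pold2* (-0.75) and *Rpa1* (-0.68). *Lig1*, the replicative ligase, rose by 1.22 and 1.58. Of 20 origin recognition and firing genes 7 and 14 rose, led by *Dbf4*, the activator of the CDC7 kinase, at 1.84 and 2.09. Of 14 nucleotide synthesis genes 7 and 9 rose, led by *Tk1*, thymidine kinase, at 1.74 and 2.12, while *Rrm2b*, the p53-induced small subunit of ribonucleotide reductase used by resting cells, fell by 1.26 and 1.32, and *Gart*, a purine synthesis gene, by 0.56 in SHAM. All 8 replication-coupled chromatin genes rose in Laminectomy and 6 in SHAM. Of 15 damage checkpoint and recombination genes 7 and 12 rose, led by *Exo1*, an exonuclease gene, in Laminectomy (2.21), where 1 fell, *Atrip* (-0.56).

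Genes fell beside genes that rose in several lists. Of 15 genes for subunits and regulators of the anaphase-promoting complex, 2 rose and 2 fell in SHAM and 5 rose and 2 fell in Laminectomy. *Anapc5*, a core subunit, fell from 603 CPM in No operation to 211 CPM in SHAM and 220.0 CPM in Laminectomy mice (log2 fold changes of -1.51 and -1.45, adjusted p = 3.07e-06 and 5.58e-06 by edgeR). Of 16 genes for pocket proteins, MuvB and E2F partners 3 rose and 4 fell in SHAM and 4 rose and 4 fell in Laminectomy. *E2f7*, a repressor E2F and target of E2F1, rose by 1.65 and 2.01, and *E2f6*, a repressor outside this circuit, fell by 2.16 and 1.90. Of the 4 CDK tyrosine kinases and phosphatases, *Pkmyt1*, a kinase gene that restrains CDK1, rose in both comparisons (0.73 and 0.98), and *Cdc25a* (0.65) and *Cdc25b* (1.05), which encode CDK phosphatases, rose in Laminectomy.

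Of 9 G1 cyclins and CDKs tested, 3 rose in SHAM and 4 in Laminectomy. *Cdk4* rose by 1.27 and 1.28 and *Cdk6* by 1.21 and 1.35, while *Ccnd1*, cyclin D1, rose in Laminectomy (0.67, adjusted p = 0.00526 by edgeR) and was at 0.47 in SHAM. *Ccnd2* was at 0.17 and -0.39 and *Ccnd3* at 0.47 and 0.56, and neither was called.

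The CDK inhibitors, which halt the cycle, rose beside the cell cycle genes in part. *Cdkn1a*, p21, was at 154, 35.7, 74.3 and 64.0 CPM in No operation, 176, 222.5, 174 and 216.5 CPM in SHAM and 206, 224, 192.5 and 226 CPM in Laminectomy mice (log2 fold changes of 1.27 and 1.37, adjusted p = 0.00633 and 0.00431 by edgeR). No operation mouse 2, with the highest cell cycle levels of its group, had the lowest *Cdkn1a*. *Cdkn1c*, p57, rose by 0.98 and 1.09 (adjusted p = 0.00406 and 0.00227 by edgeR), and *Cdkn3*, a CDK phosphatase gene, by 1.47 and 1.95. *Cdkn2b*, p15, rose in Laminectomy (1.34) and was at 0.88 in SHAM, and *Cdkn1b*, p27, at -0.30 and -0.47, *Cdkn2c* at -0.46 and -0.26 and *Cdkn2d* at 0.14 and 0.20 were not called.

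*Cdkn2a*, the gene of p16 and ARF, was called higher in both surgical groups, but from very few reads. Its level was 0.345, 0, 0.0666 and 0 CPM in the No operation group, 0.337, 0.963, 0.371 and 0.641 CPM in the SHAM group and 1.85, 1.080, 0.932 and 0.991 CPM in Laminectomy mice. Laminectomy mice were all above No operation mice, SHAM mouse 2 was above Laminectomy mouse 3, and No operation mouse 1 was within the SHAM range. Of 11 p53 target genes, 3 rose and 2 fell in SHAM and 2 rose and 2 fell in Laminectomy, with *Bax* rising by 1.37 and 1.15 and *Ccng1*, cyclin G1, falling from 766 CPM in No operation to 153 CPM in SHAM and 173 CPM in Laminectomy mice on average.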

How the data were processed

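Bulk polyA RNA sequencing of 12 mouse tissue samples was analysed, 4 each from No operation, SHAM and Laminectomy mice, grouped by their labels. Per the study's methods and the submitters' processing notes, the authors aligned reads to mm10 with STAR 2.6.1b, counted them per gene with featureCounts 2.0.1 at default settings and used DESeq2 1.30.1. The authors deposited unnormalized expected counts (estimated counts, since 10.22% of the values, in 2933 genes, are not whole); the step that made them fractional is not given in the sources used here. They were rounded, by at most 0.5. The study describes 3 mice a group without naming them, so all 4 labelled mice were used. Labels number the samples only, so the spread between them is taken as that between mice. No pair of libraries of 1 group agreed within sampling noise.

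edgeR 4.0.16 (limma 3.58.1, R 4.3.3) was fitted once to all 12 libraries, with TMM scaling, after filterByExpr removed 4231 genes and kept 14765. Group contrasts used the quasi-likelihood test with Benjamini-Hochberg adjustment over all genes tested. A gene was called where its adjusted p was under 0.05 and its log2 fold change exceeded 0.5 in size. The common dispersion was 0.0799. Each SE is the size of the log2 fold change divided by the square root of its F statistic. The members and all gene lists were chosen with earlier results of these data known. Members were described in every mouse if they had the highest CPM per kb of exon of their role, the largest or smallest fold change of the S phase or mitotic class in a comparison, or lacked a call in either comparison with No operation; other values are examples. Exons and positions came from GENCODE annotation of GRCm38, promoter windows from RefSeq (GRCm38.p6). Figures used log2(CPM + 0.5) where logs are drawn. Alternatives were DESeq2 1.42.0, other scalings, filters, fold limits, fits of only the 2 groups compared, the replicate number as a block, each mouse left out, and, chosen after seeing the data, *Pttg1* left out of the sums and No operation mice left out of the sums. On simulated counts for Laminectomy against No operation, edgeR called 95.00% of 200 changed genes with 2 other calls among 14913, and for Laminectomy against SHAM 94.50% with 8 other calls, where DESeq2 called 94.50% with 27 other calls among 18369. All genes were simulated with the common dispersion, and the changed genes, all well counted, moved up or down by the same log2 size. That size exceeded the member median of 0.49 between Laminectomy and SHAM. These shares therefore do not tell how many changes of the members' size would be called. Intervals of counting error are not given, since the spread between mice is larger. Python 3.11.15, pandas 2.3.3, numpy 2.4.6 and matplotlib 3.10.9 were used.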

Additional observations from a re-analysis of the deposited data

How the results depend on the processing

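No member changed the sign of a called fold change under any alternative run. Of 1034 member values in each comparison, 55 (SHAM against No operation), 56 (Laminectomy against No operation) and 0 (Laminectomy against SHAM) moved by more than their SE. The No operation mice spread more widely for these genes than the surgical mice did. With each mouse left out in turn, S phase calls ranged from 6 to 11 in SHAM and from 8 to 12 in Laminectomy. The lowest Laminectomy count came without Laminectomy mouse 1. The S phase median log2 fold change ranged from 0.68 to 1.38 in SHAM and from 1.06 to 1.75 in Laminectomy. The mitotic median ranged from 1.28 to 2.51 and from 1.80 to 3.03. The highest value in each case came without No operation mouse 2.

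Between Laminectomy and SHAM, DESeq2 called 337 genes higher and 359 lower over all genes, where edgeR called 0. With library totals in place of TMM, 5456 genes were called higher and 2347 lower in Laminectomy (3578 and 3605 with TMM). When each mouse had to hold 10 or more counts of a gene, 21 mitotic genes were called higher in Laminectomy, since fewer genes were fitted, and with only the 2 groups compared, 17 were called in SHAM. With an absolute log2 fold change above 1, the calls over all genes were 2297 higher and 2292 lower in SHAM and 2155 and 2168 in Laminectomy, and in SHAM 3 S phase genes were called higher and 7 genes of the other cell cycle lists lower, as fewer genes reach that limit.

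With the replicate block, 39 members were called higher in SHAM and 50 in Laminectomy, with mitotic medians of 1.96 and 2.51. The samples share only a number: the deviations of same-numbered SHAM and No operation samples correlated at 0.195, -0.164, 0.148 and -0.228, those of Laminectomy and No operation samples at 0.192, 0.0686, 0.287 and 0.352, and those of Laminectomy and SHAM samples at 0.131, -0.125, 0.333 and -0.131, so that in no comparison did every pair exceed 0.1. No count of member calls changed by over 1.5 times with the block.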
